A study of Mus musculus with 48 samples.

Results

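The comparison here is of macrophages from healthy lung with macrophages from healthy joint and limb muscle. The cells were measured by Seq-Well, in which single cells settle into small wells with barcoded beads and each captured RNA molecule is counted once as a unique molecular identifier (UMI). Cells were taken where the deposited annotation named them both Macrophages and Healthy, which gave 427 cells, 284 from lung, 61 from joint and 82 from muscle, of 1331 macrophages and 12096 annotated cells in the series. UMIs were summed per organ and mouse, and sums of at least 10 cells were kept. This left 422 cells in 10 sums, with lung of mice H3, H4, H6 and H7, joint of H3, H4 and H7, and muscle of H4, H6 and H7. Muscle of H3 held 5 macrophages and was left out.

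The study set 4 healthy mice beside 6 mice with collagen-induced arthritis (CIA), and the series holds 48 samples, 28 of them from these 3 organs. All mice were male DBA1/J animals of 8 to 12 weeks. The healthy mice were given PBS, while the CIA mice received collagen II in adjuvant with a booster at day 20. Mouse H3 belonged to the experiment labelled 2CIA and H4, H6 and H7 to the experiment labelled CIA. Organs were digested with different enzymes, collagenase IV at 1.5 mg/mL for joint and at 1.8 mg/mL for lung and collagenase II at 2 mg/mL for muscle, so that an effect of organ and an effect of digestion cannot be told apart. Each healthy sum comes from 1 mouse, and no barcode was shared among the healthy libraries' macrophages.

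Macrophages engulf microbes, dying cells and lipids, and take on different programmes in different organs. In lung, alveolar macrophages live at the air surface, where they clear surfactant, a mixture of lipid and protein, and depend on GM-CSF and the nuclear receptor PPARγ. In connective tissue such as synovium, resident macrophages often carry Lyve1, Folr2 and complement C1q, while cells recently derived from blood monocytes carry Ly6c2 and Ccr2.

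The 10 genes that the study used to mark macrophages were all detected in each organ, and their summed level was 28246 to 34032 CPM in lung sums, 16299 to 24561 CPM in joint sums and 13986 to 26671 CPM in muscle sums. A CPM value is the UMI count a gene would have in a library of 1000000 UMIs, with library sizes scaled by the trimmed mean of M values. Other annotated cells of the same samples stood at 1340 to 3387 CPM in lung, 1573 to 4230 CPM in joint and 4697 to 8089 CPM in muscle. For other annotated cells, here and below, CPM are on plain UMI totals without that scaling. Among general markers, Adgre1, encoding F4/80, had no UMI in muscle macrophages, and Mertk, a receptor for dying cells, had none in joint or muscle. Sums held 15 to 148 cells and 11900 (joint of H4) to 103883 UMIs (lung of H4), so that 1 UMI was worth 9.98 to 79.7 CPM, and a value of 0 in a small sum says little. The sums of an organ correlated at r = 0.789 to 0.892 in lung, 0.677 to 0.816 in joint and 0.766 to 0.820 in muscle across tested genes on a log scale, where genes are not independent replicates.

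RNA of other cell types differed between the organs as well. The 8 lung epithelium genes, with surfactant protein Sftpc and club cell secretoglobin Scgb1a1 at their head, summed to 26451 to 146919 CPM in lung macrophages and to 0 in joint and muscle macrophages. The 5 erythroid genes summed to 0 to 251 CPM in lung, 9403 to 37036 CPM in joint and 2073 to 48720 CPM in muscle, with Hba-a2, Hbb-bt and Alas2 at 0 in lung. The 7 granulocyte genes summed to 350 to 731 CPM in lung, 877 to 10077 CPM in joint and 6668 to 36520 CPM in muscle, with Ltf and Ly6g at 0 in lung. The 7 fibroblast genes summed to 33.2 to 209 CPM in lung, 1276 to 2389 CPM in joint and 40.7 to 569 CPM in muscle, with Col1a2 and Mmp2 at 0 in lung and Lum and Mmp2 at 0 in muscle. Lists for T cells, B cells, NK cells, dendritic cells, endothelium, muscle fibres, osteoclasts, mast cells and keratinocytes reached 559 CPM at most in any of the 10 sums.

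**Figure D1:**
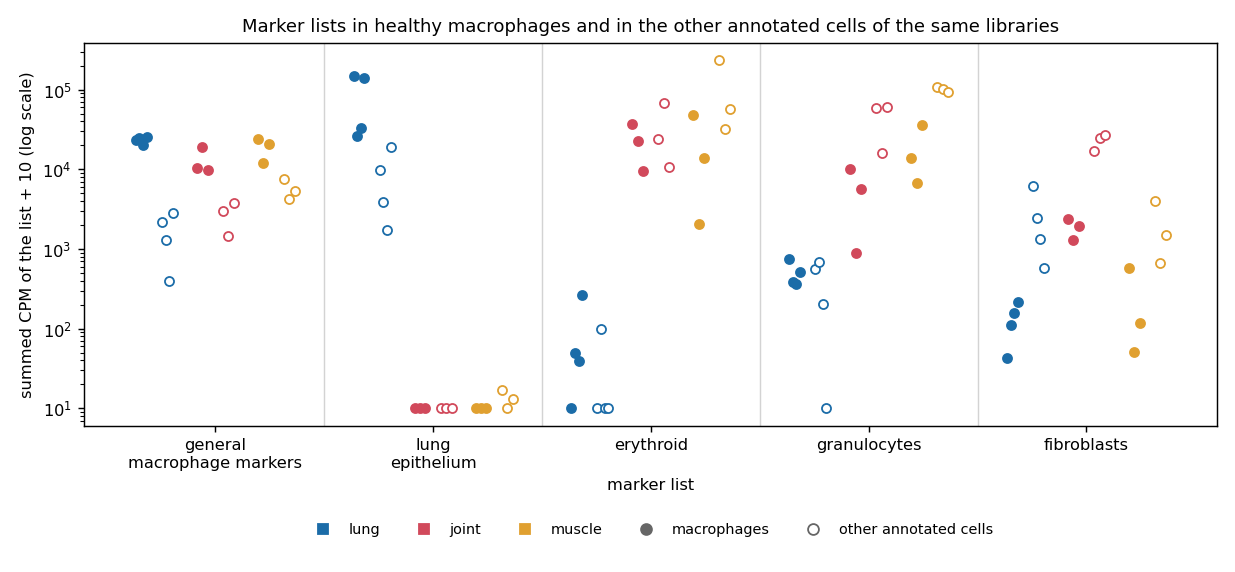
Summed level of 5 marker lists in each organ-and-mouse sum, in CPM on a log axis after adding 10 CPM. Filled points are annotated macrophages and open points are all other annotated cells of the same samples, with colours for organs. Open points are on plain UMI totals, without the scaling used for filled points. Lung epithelium genes stand at 26451 CPM or more in every lung macrophage sum and at 0 in the joint and muscle sums, while erythroid genes stand at 251 CPM or less in lung and at 2073 CPM or more in the other organs.

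Across 600 genes that passed a filter on low counts, lung macrophages were set apart from the mean of joint and muscle by 57 genes that were higher in lung (9.5% of those tested) and 41 that were lower (6.83%), at an adjusted p under 0.05 in the quasi-likelihood test of edgeR, adjusted after Benjamini and Hochberg. Values of the 4 lung sums lay wholly above the other 6 sums for 6.67% of tested genes and wholly below for 3.5%. Against joint alone 41 genes were higher (6.83%) and 39 lower (6.5%) in lung, and against muscle alone 48 were higher (8%) and 45 lower (7.5%). The groups did not overlap for 12.8% and 9.5% of genes against joint and for 14.8% and 13% against muscle. Between joint and muscle, 16 genes were higher (2.67%) and 10 lower (1.67%) in joint, and their values did not overlap for 11% and 11.8% of genes. Counts depended on single sums. Against the mean of joint and muscle, the lower genes numbered 23 without lung of H3, 20 without lung of H4 and 27 without muscle of H7, and the higher genes 36 without lung of H4. Against joint the higher genes numbered 25 without lung of H3, 23 without lung of H4 and 27 without joint of H3, which also left 21 lower genes. Against muscle the lower genes numbered 27, 25 and 29 without lung of H3, H4 and H7 and 27 without muscle of H7, and the higher genes 31 without lung of H4 and 25 without muscle of H7. With plain library sizes the split against the mean of both organs turned to 39 higher and 57 lower, against muscle to 40 and 77 and against joint to 32 and 42, and the median of all genes moved by -0.22, -0.31 and -0.15 on the log2 scale. None of 115 gene results examined changed direction in any setting that tested the gene. With the mouse as a block, the genes lower in lung than in muscle numbered 29.

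Genes known from alveolar macrophages were among those higher in lung. Of 20 listed, 19 had a UMI and 4 (Chil3, Ear2, Fabp1 and Cd9) passed the filter, all 4 higher in lung. They passed it through lung, where they were high, so the count is only a description. Over all 600 genes, 9.5% were higher in lung and 6.83% lower. These shares stand beside the counts of every list against the mean of both organs. Below, CPM are given for lung of H3, H4, H6 and H7, joint of H3, H4 and H7, and muscle of H4, H6 and H7, in that order.

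Chil3 (chr3:106147554-106167564, build GRCm38), a secreted chitinase-like protein, stood at 830, 978, 730 and 712 CPM in lung, 51.9, 0 and 52.2 CPM in joint and 71.1, 0 and 296 CPM in muscle. Every lung sum lay above every other sum, muscle of H7 being the nearest. On the log2 scale Chil3 was 3.31 ± 0.50 (SE) higher in lung (adjusted p = 9.5e-05), and 4.505 higher without muscle of H7. Chil3 was also found outside macrophages, at 364 CPM in the other cells of muscle and 146 CPM in those of joint, and whether RNA from those cells entered the 12 UMIs of muscle macrophages was not tested.

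Fabp1 (chr6:71199827-71205023), a fatty acid binding protein, stood at 897, 1028, 554 and 1549 CPM in lung and had no UMI in any joint or muscle sum. The 186 lung UMIs against a floor of 3 UMIs over the other 6 sums make it at least 48.0-fold higher (adjusted p = 4.3e-06), or at least 35.4-fold without joint of H3, the sum whose removal lowers it most. Coagulation factor F7 behaved alike, with 432, 289, 321 and 419 CPM in lung, no UMI elsewhere and a level at least 16.3-fold higher in lung. Ear2 (chr14:44102654-44103534), a ribonuclease of the eosinophil-associated family, stood at 531, 838, 350 and 753 CPM in lung and at 0 elsewhere except 40.7 CPM in muscle of H6. This is 130 UMIs against 1, a ratio of 101 (95% counting interval 17.8 to 4008). Near-identical members of this family can share reads, so the division among Ear genes is uncertain.

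Of the 16 listed alveolar genes that were too low to test, 15 had lung UMIs. Ear1 had 89 UMIs in lung and none in joint or muscle, Cidec, a lipid droplet protein, 53 and none, and Bhlhe41, a transcription factor, 30 and none. Pparg had 14 UMIs and carbonic anhydrase Car4 20, again with none in joint or muscle. Il18, encoding a cytokine, had 59 UMIs in lung, 2 in joint and none in muscle, and the integrin Itgax had 26, 4 and 2. Siglecf, the usual surface marker of alveolar macrophages, had 1 UMI in 202981 from lung macrophages, and the scavenger receptor Marco had none. At this depth a count of 0 over all lung macrophages allows up to 3 UMIs, so an absence of Marco cannot be told from a low level.

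Of 20 listed lipid handling genes, 8 were tested, of which 5 were higher in lung, 1 (Apoe) was lower and 2 were not called, and their median log2 difference was 2.42 beside 0.05 for all 600 genes. The 5 passed the filter mainly through lung, where they were high, as with 93 UMIs of Lipa in lung beside 3 in joint and 6 in muscle, so the count and the median are a description only. Abcg1 (chr17:31057675-31117988), a cholesterol exporter, stood at 764, 798, 671 and 1172 CPM in lung, 182, 0 and 0 CPM in joint and 71.1, 122 and 80.7 CPM in muscle. All lung sums were higher than all others, with a log2 difference of 3.13 ± 0.46 (adjusted p = 7.1e-05). Without joint of H3, which leaves no UMI in joint, the fitted difference was 5.48.

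Lpl (chr8:68880491-68907448), which frees fatty acids from lipoprotein triglyceride, stood at 1063, 1157, 613 and 1381 CPM in lung, 545, 159 and 209 CPM in joint and 284, 81.3 and 0 CPM in muscle (log2 difference 2.57 ± 0.48, adjusted p = 0.0008; 3.21 without muscle of H4). The lung and joint ranges came close, and against joint alone Lpl did not pass (adjusted p = 0.059). Cd36 (chr5:17781690-17888801), a receptor for oxidised lipid, stood at 797, 928, 409 and 963 CPM in lung, 390, 319 and 52.2 CPM in joint and 71.1, 40.7 and 0 CPM in muscle (3.09 ± 0.51, adjusted p = 0.00022). The means were ordered lung, joint, muscle. Lung exceeded muscle by 154 UMIs to 2 (ratio 31.0, 95% counting interval 8.43 to 258), while lung against joint did not pass (adjusted p = 0.061).

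Lipa, the lysosomal lipase that hydrolyses cholesteryl esters, stood at 797, 449, 292 and 586 CPM in lung, 51.9, 0 and 52.2 CPM in joint and 142, 81.3 and 53.8 CPM in muscle (3.07 ± 0.50, adjusted p = 0.00018). Plin2, a coat protein of lipid droplets, stood at 598, 728, 525 and 628 CPM in lung against 0 to 213 CPM in the other 6 sums (2.26 ± 0.42, adjusted p = 0.00081). Both were separated without overlap. Apoe, a carrier of lipid in lipoproteins, ran the other way, at 166, 170, 292 and 167 CPM in lung, 312, 1037 and 522 CPM in joint and 356, 122 and 1425 CPM in muscle. Its call (-1.65 ± 0.54, adjusted p = 0.042) was lost in 6 of 10 fits that left out 1 sum (lung of H3, H4 or H7, joint of H4 or H7, or muscle of H7), where adjusted p reached 0.36 and the difference shrank to -0.79 without muscle of H7, and with the mouse as a block (adjusted p = 0.089).

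Some receptor and lysosomal genes were higher in lung. Of 12 tested lysosome and protease genes, 2 were higher, 10 were not called and the median log2 difference was 0.51. Of 7 tested scavenger and phagocytic receptors, 3 were higher and 4 were not called, with a median of 0.79. Over all 600 genes 9.5% were higher and the median was 0.05. Ctss (chr3:95526786-95556403), the cathepsin that trims the MHC class II invariant chain and 1 of the study's macrophage markers, stood at 5680, 6226, 5457 and 7032 CPM in lung, 2337, 1515 and 2194 CPM in joint and 1067, 1016 and 1506 CPM in muscle. The organs were ordered lung, joint, muscle with no overlap between any pair of them. Its log2 difference was 1.95 ± 0.22 (adjusted p = 4.6e-06), and over 23 other settings it ranged from 1.71 to 2.26.

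Clec7a, the beta-glucan receptor Dectin-1, stood at 897, 1267, 1109 and 1046 CPM in lung and at 79.7 to 260 CPM in the other 6 sums (2.58 ± 0.34, adjusted p = 1.6e-05). Cathepsin D, Ctsd, stood at 797, 1118, 525 and 795 CPM in lung against 79.7 to 296 CPM elsewhere (1.82 ± 0.34, adjusted p = 0.00089). Lyz2, lysozyme, was high in every organ, at 18471 to 23567 CPM in lung, 8306 to 17384 CPM in joint and 10449 to 21835 CPM in muscle. These ranges overlapped and Lyz2 was not called (0.65 ± 0.33, adjusted p = 0.22), but with the mouse as a block it was (0.79, adjusted p = 0.048).

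Among secreted factors, the chemokine Ccl6 stood at 1761, 2065, 1576 and 2972 CPM in lung, 1065, 399 and 575 CPM in joint and 142, 285 and 269 CPM in muscle (2.28 ± 0.29, adjusted p = 1.5e-05). Its organs were ordered lung, joint, muscle without overlap, although joint against muscle did not pass (adjusted p = 0.052). Spp1, osteopontin, stood at 1096, 1287, 730 and 1005 CPM in lung, 0, 638 and 157 CPM in joint and 0, 163 and 26.9 CPM in muscle (3.17 ± 0.59, adjusted p = 0.0008; 0.056 by DESeq2). Without joint of H4 or muscle of H6 the Spp1 difference was 4.03 and 3.98. Of 6 tested chemokines, Ccl6 was the 1 that was higher, Pf4 was lower and 4 were not called. Over all 600 genes 9.5% were higher and 6.83% lower.

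Of 9 tested antioxidant and iron genes, 3 were higher in lung and none lower, beside 9.5% and 6.83% of all 600 genes. The metallothionein Mt1 stood at 498, 609, 642 and 377 CPM in lung and at 108 to 239 CPM elsewhere (1.60 ± 0.35, adjusted p = 0.0035). The ferritin light chain Ftl1 (0.98 ± 0.26, adjusted p = 0.013) and the peroxiredoxin Prdx1 were smaller differences that did not pass with plain library sizes (adjusted p = 0.091 for each), and Prdx1 was also lost without lung of H4 (adjusted p = 0.053). S100a1, a calcium-binding protein, was the member of its family that was higher in lung, at 498, 489, 233 and 628 CPM against 0 to 142 CPM elsewhere (2.37 ± 0.48, adjusted p = 0.0018).

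**Figure D2:**
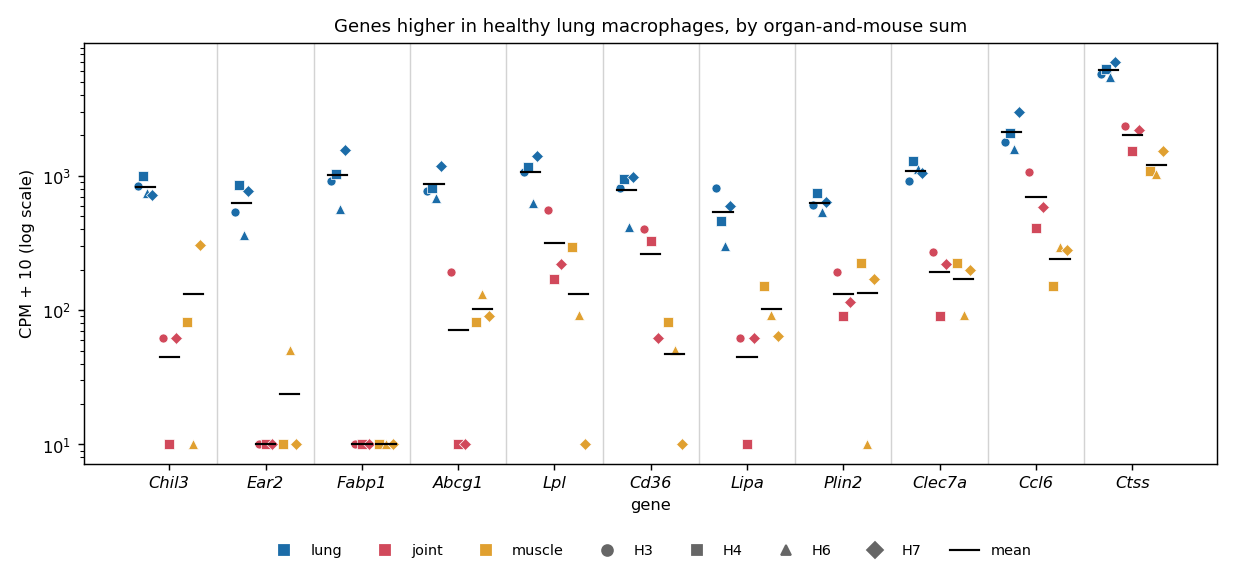
CPM of 11 genes higher in lung macrophages, on a log axis after adding 10 CPM, with 1 point per organ-and-mouse sum (4 lung, 3 joint and 3 muscle sums), colours for organs, marker shapes for mice and a line at each organ's mean. For Ctss the lung points sit between 5457 and 7032 CPM, above all joint and muscle points, and for Fabp1 all joint and muscle points are at 0.

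On the other side, several genes of S100 proteins, galectins and annexins were lower in lung. Of 11 tested members 7 were lower, 1 (S100a1) was higher and 3 were not called, with a median log2 difference of -1.59 beside 0.05 for all genes. The 7 include S100a8 and S100a9, which neutrophils make in bulk and which are given with the granulocyte genes. Members such as S100a4 and S100a8 passed the filter through joint and muscle, where they were high. The count and the median are therefore a description only. S100a4 (chr3:90603771-90606045), a calcium-binding protein of motile cells, stood at 99.7, 190, 233 and 83.7 CPM in lung, 1662, 1675 and 1672 CPM in joint and 1209, 1057 and 1533 CPM in muscle. Every joint and muscle sum lay above every lung sum, and every joint sum above every muscle sum, although joint against muscle did not pass (adjusted p = 0.50). Its log2 difference was -3.14 ± 0.32 (adjusted p = 1.4e-06), between -3.34 and -2.37 over 23 other settings.

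S100a6 (chr3:90612882-90624181), its neighbour on the chromosome, stood at 698, 529, 817 and 126 CPM in lung, 4675, 2871 and 3448 CPM in joint and 1991, 1586 and 1614 CPM in muscle (-2.18 ± 0.33, adjusted p = 9.4e-05). Lgals1 (chr15:78926725-78930465), galectin-1, stood at 66.4, 289, 350 and 293 CPM in lung, 2337, 1595 and 1515 CPM in joint and 925, 407 and 1049 CPM in muscle (-2.23 ± 0.37, adjusted p = 0.00023). For both genes every joint sum lay above every muscle sum and every muscle sum above every lung sum, but joint against muscle did not pass (adjusted p = 0.09 for S100a6 and 0.096 for Lgals1). Anxa1 (-1.59 ± 0.42, adjusted p = 0.013) lost its call without lung of H4, joint of H3 or muscle of H7, and S100a10 (-0.93 ± 0.25, adjusted p = 0.015) without lung of H3, lung of H4 or joint of H3, with adjusted p up to 0.081 for Anxa1 and 0.078 for S100a10.

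F13a1 (chr13:36867178-37050244), the catalytic subunit of coagulation factor XIII and a macrophage marker of the study, separated the organs almost by presence. It stood at 0, 9.98, 0 and 0 CPM in lung, 727, 797 and 366 CPM in joint and 996, 163 and 430 CPM in muscle. All of lung held 1 UMI, against 45 in joint and 34 in muscle, a ratio of 102 (95% counting interval 17.8 to 4078, counting error only), and the test gave adjusted p = 1.5e-05. Tuba1a, an alpha-tubulin, stood at 33.2, 49.9, 58.4 and 0 CPM in lung, 364, 478 and 418 CPM in joint and 284, 285 and 215 CPM in muscle (-2.86 ± 0.52, adjusted p = 0.00056).

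Genes of monocyte-derived cells numbered 6 tested of 15 listed, with a median of -1.87. Of these, 4 (S100a4, S100a6, Ly6c2 and Ifitm3) were lower in lung, beside 6.83% of all genes, and 2 were not called. S100a4 and S100a6 stand in this list and the previous one. S100a4 passed the filter through joint and muscle and Ly6c2 through muscle, where they were high, so the count and the median are a description only. Ly6c2 (chr15:75108158-75111970), the Ly6C antigen of classical monocytes, was a muscle gene rather than one shared with joint. It stood at 0, 9.98, 0 and 41.9 CPM in lung, 25.97, 0 and 52.2 CPM in joint and 925, 447 and 511 CPM in muscle. Lung held 2 UMIs, joint 2 and muscle 43, and lung against muscle gave adjusted p = 2.4e-05. Against the mean of both organs Ly6c2 gave adjusted p = 0.031, which was lost in 6 of 10 fits without 1 sum (lung of H3, H4 or H6, joint of H3 or H7, or muscle of H7; adjusted p up to 0.16) and with the mouse as a block (0.055). Reads can be shared with its near copy Ly6c1.

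Both tested interferon response genes, Ifitm2 and Ifitm3, were lower in lung, beside 6.83% of all tested genes. They code for membrane proteins that limit viral entry. The calls were not firm. Ifitm2 (-1.64 ± 0.44, adjusted p = 0.014) was lost without lung of H3, lung of H4 or joint of H3 (adjusted p up to 0.077). Ifitm3 (-1.28 ± 0.42, adjusted p = 0.042) was lost in 8 of 10 such fits, all but those without joint of H4 or muscle of H6 (adjusted p up to 0.18), and with the mouse as a block (0.068).

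MHC class II genes were at lower values in lung without passing the test. Of 10 listed, 4 were tested and none was called, with a median log2 difference of -0.65. Cd74, the invariant chain, stood at 3953, 3452, 3093 and 1758 CPM in lung, 4987, 9569 and 7105 CPM in joint and 782, 6627 and 6078 CPM in muscle (-0.90 ± 0.40, adjusted p = 0.15). Muscle of H4, with 15 cells, was the lowest of all sums. Without it Cd74 (-1.11, adjusted p = 0.011) and H2-Aa, an MHC class II chain (-0.76, adjusted p = 0.046), passed.

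The remaining lists showed little. Of 19 tested immediate early and stress genes, which tissue digestion can induce, 1 (Btg1) was higher in lung and none lower, with a median of 0.00. The Btg1 call was lost in 6 of 10 fits without 1 sum (lung of H3, H4 or H6, joint of H3 or H7, or muscle of H6), and with the mouse as a block (adjusted p = 0.067). None of 3 tested MHC class I presentation genes, 3 cell cycle genes, 2 complement genes and 1 receptor gene was called in lung against the mean of both organs.

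Joint macrophages carried genes that lung and muscle macrophages had little of. Of 22 listed resident macrophage genes, 4 were tested, of which Mrc1 was higher in lung, F13a1 and Pf4 were lower and 1 was not called (median -2.85). F13a1 passed the filter through joint and muscle and Pf4 through joint, where they were high, so the count and the median are a description only. Both tested complement genes were lower in lung than in joint, and the calls between joint and muscle rested on few sums. C1qc (chr4:136889804-136893065), a chain of complement C1q, stood at 66.4, 69.8, 321 and 0 CPM in lung, 883, 1276 and 1149 CPM in joint and 0, 163 and 161 CPM in muscle. C1qb (chr4:136880129-136886187) stood at 0, 120, 379 and 41.9 CPM in lung, 675, 797 and 1149 CPM in joint and 0, 163 and 161 CPM in muscle. The joint sums were above all others for both genes, which are macrophage markers of the study. Lung was lower than joint by -3.23 ± 0.57 for C1qc (adjusted p = 0.00055) and -2.59 ± 0.62 for C1qb (adjusted p = 0.0069; 0.16 by DESeq2), while lung against muscle did not pass (adjusted p = 0.90 and 0.95). Without lung of H6 the differences from joint were -4.18 for C1qc and -3.45 for C1qb, and with the mouse as a block -3.91 and -3.34.

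Pf4 (chr5:90772435-90773383), a chemokine of platelets and some macrophages, stood at 33.2, 0, 0 and 0 CPM in lung, 909, 877 and 731 CPM in joint and 0, 122 and 0 CPM in muscle. Joint held 60 UMIs against 1 in lung, a ratio of 161 (95% counting interval 27.8 to 6469; adjusted p = 1.9e-05). Against the mean of both organs the Pf4 call (adjusted p = 0.0093) was lost without lung of H4 (0.053) or muscle of H6 (0.98), where the fitted difference moved from -4.39 to -3.57 and -2.59, and without lung of H3, its single lung UMI, it was -5.69. Of the resident macrophage genes too low to test, Lyve1, a hyaluronan receptor, had 30 UMIs in joint at 493, 478 and 261 CPM, 2 in lung and none in muscle. The folate receptor Folr2 had 15 UMIs in joint at 234, 159 and 209 CPM and none in lung or muscle. C1qa had 28 UMIs in joint, 8 in lung and 2 in muscle, and the lipid receptor Trem2 had 21, 12 and 5.

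Of 24 genes examined in joint against muscle, the call was kept through the removal of each of the 10 sums for Lmna and Cd9. Lmna, a protein of the nuclear lamina, stood at 1273, 877 and 784 CPM in joint and 71.1, 40.7 and 161 CPM in muscle (3.25 ± 0.53, adjusted p = 0.0041; 4.09 without muscle of H7), and at 292 to 549 CPM in lung, between them. Cd9, a tetraspanin, stood at 831, 1435 and 679 CPM in joint, 213, 81.3 and 242 CPM in muscle and 1594, 1457, 1196 and 1926 CPM in lung (2.36 ± 0.45, adjusted p = 0.0055). Joint and muscle were apart for both genes, while for Cd9 the lung and joint ranges overlapped.

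The other joint-against-muscle calls rested on few sums. Without joint of H3, 4 genes were higher and none lower, without muscle of H7 3 and 2, without joint of H7 3 were lower, and without lung of H7 25 were higher. Rnase4, a secreted ribonuclease, stood at 961, 718 and 522 CPM in joint and 142, 0 and 0 CPM in muscle (4.60 ± 0.90, adjusted p = 0.0055), and lost its call without joint of H3 (0.063) or muscle of H7 (0.068). Its 4.60 became 4.02 and 3.64 without muscle of H6 and H7, and muscle of H4 held all of its muscle UMIs. The same removals ended the call of C1qc (3.03 ± 0.67, adjusted p = 0.011; then 0.063 and 0.068) and Pf4 (adjusted p = 0.0055; then 0.063 and 0.061). The call of C1qb (2.72 ± 0.74, adjusted p = 0.041) was lost in 7 of 10 fits without 1 sum (lung of H4 or any joint or muscle sum, adjusted p up to 0.13), by DESeq2 (0.13) and with plain library sizes (0.053). With the mouse as a block the difference between joint and muscle was 3.89 for C1qc and 3.74 for C1qb. Crip1, a LIM domain protein, stood at 18388, 16028 and 17344 CPM in joint against 3129, 5936 and 2770 CPM in muscle (2.13 ± 0.39, adjusted p = 0.0055; 0.061 without muscle of H7). Ly6c2 was lower in joint than in muscle (adjusted p = 0.0055; 0.063 without joint of H3 and 0.059 with the mouse as a block).

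Mrc1, the mannose receptor, was high in lung at 365, 419, 525 and 544 CPM, at 519, 159 and 104 CPM in joint and low in muscle at 0, 40.7 and 53.8 CPM. Lung exceeded the mean of both organs by 2.00 ± 0.49 (adjusted p = 0.0083), or 2.65 without joint of H3, but the lung and joint ranges overlapped, and joint against muscle was a marginal call (2.87 ± 0.81, adjusted p = 0.05) that was lost with the mouse as a block (0.16) and in 6 of 10 fits without 1 sum (lung of H3 or H4, joint of H3, or any muscle sum; adjusted p up to 0.45), with 1.61 left without joint of H3. Dcn, decorin, a fibroblast product, stood at 1143, 558 and 836 CPM in joint macrophages and 0, 0 and 80.7 CPM in muscle macrophages, while the other cells of joint held 3390 Dcn UMIs (10566 CPM). Sparc, also in the fibroblast list, stood at 597, 399 and 993 CPM in joint and 213, 0 and 0 CPM in muscle. Its difference was 3.88 ± 0.85 (adjusted p = 0.011), a call lost in 4 of 10 fits without 1 sum. The part of fibroblast RNA in the joint values of Dcn, Sparc, Lmna, Crip1 and Rnase4 was not tested. Igkc, an antibody light chain of B-lineage cells, stood at 25.97, 0 and 0 CPM in joint against 213, 407 and 6347 CPM in muscle, and the other cells of muscle held 1653 Igkc UMIs. Its call was lost without joint of H3 (0.063) or muscle of H7 (0.082).

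**Figure D3:**
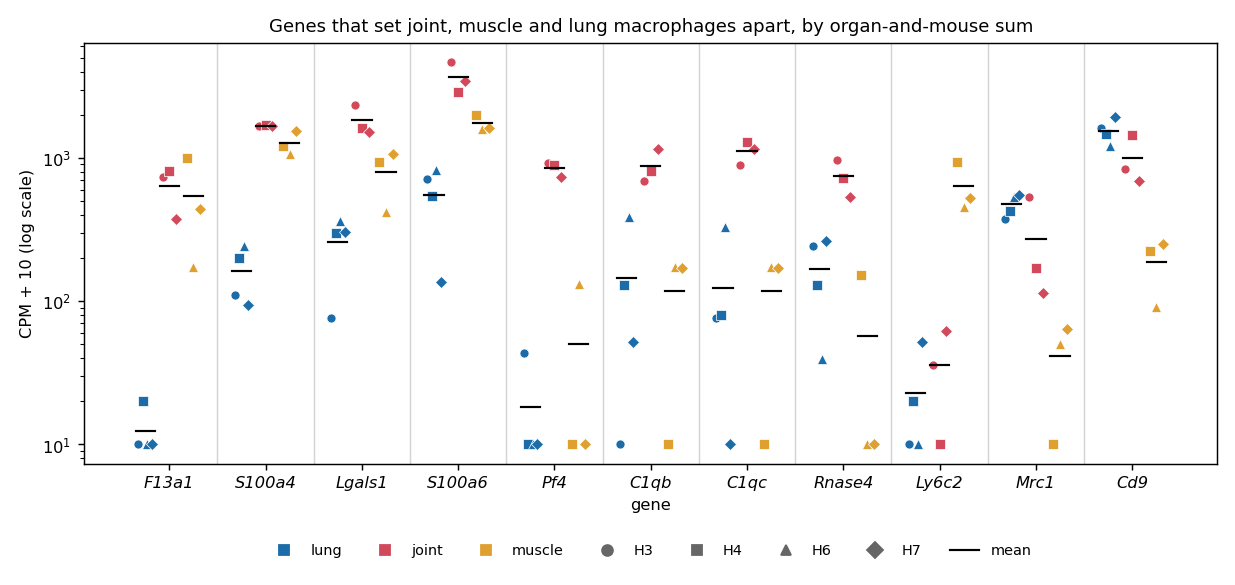
CPM of 11 genes that set joint or muscle macrophages apart, on a log axis after adding 10 CPM, with 1 point per organ-and-mouse sum, colours for organs, marker shapes for mice and a line at each organ's mean. F13a1 and S100a4 are high in joint and muscle alike, C1qb, C1qc and Pf4 stand highest in joint (731 to 909 CPM for Pf4), and Ly6c2 stands highest in muscle (447 to 925 CPM).

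The 150 bases before the annotated RefSeq start are shown for a pair of genes higher in lung (Chil3 and Ctss) and a pair lower in lung (F13a1 and S100a4), whose levels separated the organs without overlap. They were read from the table of GRCm38.p6 promoters, 5′ to 3′ on the gene's strand, from chr3:106167565-106167714 for Chil3, chr3:95526636-95526785 for Ctss, chr13:37050245-37050394 for F13a1 and chr3:90603620-90603769 for S100a4. Capitals mark any match to 4 motifs searched on both strands, namely GGAAGT, a core that PU.1 and other ETS factors bind, whose other strand reads ACTTCC, then the AP-1 motif TGANTCA, the box CCAAT that NF-Y binds, and the TATA box as TATAAA.
Chil3: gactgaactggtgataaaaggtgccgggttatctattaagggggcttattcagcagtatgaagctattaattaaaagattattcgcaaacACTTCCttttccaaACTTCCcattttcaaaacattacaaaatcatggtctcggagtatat
Ctss: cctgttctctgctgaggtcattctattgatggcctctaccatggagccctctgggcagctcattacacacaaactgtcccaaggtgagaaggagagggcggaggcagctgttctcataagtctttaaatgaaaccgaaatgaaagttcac
F13a1: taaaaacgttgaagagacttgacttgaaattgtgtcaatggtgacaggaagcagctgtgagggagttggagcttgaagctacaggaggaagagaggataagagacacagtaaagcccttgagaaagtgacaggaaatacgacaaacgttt
S100a4: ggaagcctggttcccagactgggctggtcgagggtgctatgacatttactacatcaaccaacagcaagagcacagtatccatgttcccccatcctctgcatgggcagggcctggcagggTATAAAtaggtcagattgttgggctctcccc
Chil3 held GGAAGT at 2 places and S100a4 held TATAAA, while Ctss and F13a1 held none of the 4 in these windows. Of 27025 promoters of this length, 13.9% held GGAAGT, 4.27% TGANTCA, 25.3% CCAAT and 8.08% TATAAA. A match is a stretch of letters, not a bound site, and its absence here says nothing about the factor.

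The share of cells with a UMI was then set beside that of T cells from the same samples, which should lack macrophage genes, with each cell thinned to 400 UMIs because depth differed. Macrophages numbered 284 in lung, 61 in joint and 77 in muscle, with median depths of 624, 819 and 736 UMIs. T cells numbered 43, 29 and 341, with median depths of 523, 597 and 552 UMIs. No macrophage was too shallow to thin.

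In lung, Chil3 was found in 24.2% of thinned macrophages (34.2% unthinned) and 3.82% of T cells (4.65%), and Abcg1 in 20.3% (29.2%) against 0% (0%). Ctss was found in 69.7% (75.7%) of lung macrophages and 23.05% (27.9%) of lung T cells. F13a1 was found in 0.274% of thinned lung macrophages (0.352%), 14.0% in joint (21.3%) and 14.2% in muscle (25.97%), against at most 0.371% of thinned T cells in any organ (at most 3.45% unthinned). S100a4 was found in 43.2% of thinned joint macrophages (67.2%) and 37.7% of muscle macrophages (54.5%), against 4.02% (10.3%) and 5.26% (8.21%) of T cells. In lung the S100a4 share of 6.39% (8.80%) was under the 7.99% (11.6%) of T cells, and the source of these UMIs was not tested. C1qc was found in 29.4% of thinned joint macrophages (42.6%), 4.07% in muscle (5.19%) and 3.29% in lung (4.58%), and in no T cell. Pf4 was less restricted, found in 16.2% of thinned joint macrophages (24.6%) and 10.0% of joint T cells (13.8%). The 2 joint samples with 10 or more T cells gave 0% and 26.5% for Pf4. The source of Pf4 RNA in T cells was not tested.

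Genes of other cell types gave like shares in both cell types when samples were pooled. Sftpc was found in 42.1% of thinned lung macrophages (52.8%) and 40.2% of lung T cells (48.8%). By sample, the Sftpc share of lung macrophages ran from 14.9% to 96.2%. Only 1 lung sample held 10 or more T cells, at 37.4%, so the likeness is not shown within lung samples. S100a8 was found in 54.8% of thinned joint macrophages (70.5%) and 57.0% of joint T cells (72.4%), and in 83.1% (92.2%) and 82.0% (90.0%) in muscle. Hbb-bs was found in 92.9% (96.7%) and 94.4% (96.6%) in joint and in 78.0% (87.0%) and 82.4% (88.9%) in muscle. Levels were set beside those of all other annotated cells, as CPM of plain UMI totals in both. Summed over samples, Sftpc stood at 24051 CPM in lung macrophages and 3912 CPM in the other lung cells, higher in macrophages in 4 of 4 samples. S100a8 stood at 3802 CPM in joint macrophages beside 22481 CPM in the other joint cells and at 13053 CPM beside 55002 CPM in muscle, lower in macrophages in all 6 samples. Hbb-bs stood at 20771 CPM beside 29484 CPM in joint and at 15679 CPM beside 59939 CPM in muscle. The source of this RNA was not tested. Cd74 was found in lung in 41.1% (48.9%) of thinned macrophages and 47.5% (55.8%) of T cells, in muscle in 67.2% (80.5%) and 70.5% (77.1%), and in joint in 53.7% (62.3%) of macrophages and 30.6% (44.8%) of T cells. Its level was higher in macrophages than in the other cells of the same organ in every sample, at 3020 CPM beside 1758 CPM in lung, 6309 CPM beside 231 CPM in joint and 5967 CPM beside 4254 CPM in muscle.

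**Figure D4:**
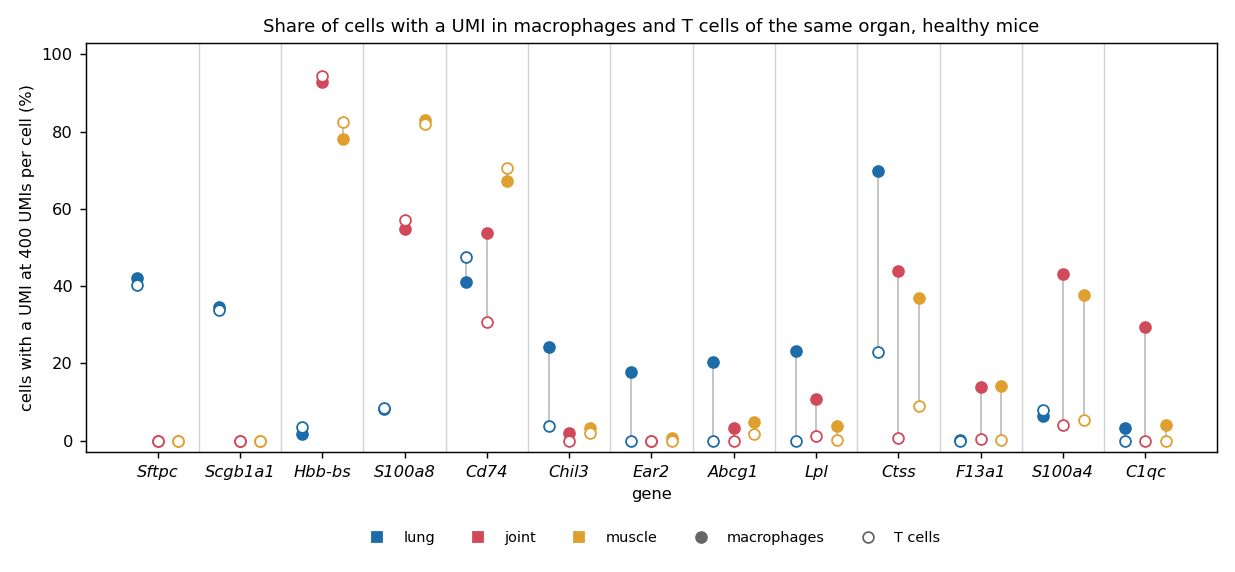
Share of cells with at least 1 UMI of each of 13 genes after thinning every cell to 400 UMIs, in percent, for annotated macrophages and T cells of each organ. Samples are pooled. Chil3, Abcg1, F13a1 and C1qc stand above T cells where they are high, while Sftpc, S100a8 and Hbb-bs give nearly the same share in both cell types.

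Genes of other cell types also had the largest organ differences. Sftpc stood at 38465, 18838, 7849 and 65594 CPM in lung macrophages and had no UMI in joint or muscle, which makes it at least 1261-fold higher, and Scgb1a1 at 100913, 4590, 22848 and 69529 CPM was at least 1534-fold higher, or at least 892-fold without lung of H3 and 3023-fold without lung of H4. S100a8 stood at 199, 259, 263 and 209 CPM in lung, 5142, 558 and 3396 CPM in joint and 7824, 3537 and 18233 CPM in muscle (-4.53 ± 0.56, adjusted p = 1.0e-05). Hbb-bs, a haemoglobin chain, stood at 0, 29.9, 29.2 and 251 CPM in lung, 28076, 19298 and 7941 CPM in joint and 42746, 1545 and 11080 CPM in muscle. Red cells were lysed in the muscle samples of H6 and H7 alone, and the part of lysis was not tested. Lung epithelium genes took 2% or more of UMIs in 36 of 284 lung macrophages. They took more than 20% in 27 of these cells and up to 60.4% in a single cell. In those 36 cells the general macrophage markers took a median of 1.70% of UMIs, beside 1.99% in the rest. The part of doublets in these cells was not tested.

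With the lung epithelium, erythroid and granulocyte genes taken out of the counts and library sizes, 58 genes were higher and 34 lower in lung among 531 tested. With the cells of 2% or more such RNA also left out, 54 were higher and 20 lower among 457 tested, with joint and muscle then at 2 sums each. In that fit C1qc and C1qb no longer passed between joint and muscle (adjusted p = 0.12 and 0.15), and Cd74 (-1.13, adjusted p = 0.014), H2-Aa (-0.81, adjusted p = 0.043) and Lyz2 (1.26, adjusted p = 6.1e-05) passed between lung and the mean of both. Chil3 had 160 UMIs in lung and none in joint or muscle in that fit, and Plin2 was 3.26 and Ctsd 2.61 higher in lung. Lmna, with 47 UMIs in joint and 1 in muscle, was 4.96 higher in joint than in muscle. Fibroblast RNA was not taken out in that fit.

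The same organ contrast was made in the CIA mice, with 6 lung, 4 joint and 4 muscle sums, as other animals of the same strain. There 58 genes were higher in lung (8.64% of 671 tested) and 42 lower (6.26%). Of the 57 genes higher in healthy lung, 41 were tested in CIA, 38 of them had the same sign and 20 were called, which is 35.1% of the healthy list and 34.5% of the CIA list. Of the 41 lower genes, 37 were tested, 36 had the same sign and 13 were called, 31.7% and 31.0% of the lists. The share of all genes tested in both groups of mice that kept their sign was not counted, so the sign counts are a description. Genes of other cell types are among those called in both groups of mice, with 3 lung epithelium genes (Scgb1a1, Sftpa1 and Sftpc) among the 20 and 7 erythroid or granulocyte genes (Camp, Hba-a1, Hbb-bs, Hbb-bt, Ngp, Retnlg and S100a9) among the 13. The median log2 difference of the tested higher genes was 0.94 in CIA and 1.59 in healthy mice, and that of the lower genes -0.75 and -1.47, beside -0.0014 over all genes tested in CIA. These CIA counts moved with single sums. The higher genes numbered 30, 30, 28 and 28 without lung of S2, S3, S5 and S6, 92 without joint of S8 and 93 and 97 without muscle of S3 and S5. The lower genes numbered 21, 22 and 26 without lung of S3, S5 and S6, 69, 25 and 71 without joint of S3, S5 and S8 and 74 without muscle of S3.

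Chil3, Abcg1, Cd36, Plin2, Clec7a, Ccl6 and Cd9 were called higher in lung in CIA too, with Chil3 at 384 ± 124 CPM (SD, n = 6) in lung, 124 ± 55.1 CPM (n = 4) in joint and 62.8 ± 66.2 CPM (n = 4) in muscle. Ctss did not pass there (0.94 ± 0.33, adjusted p = 0.06). Its CIA lung sums held 4519 ± 810 CPM (n = 6) against 2835 ± 2007 CPM (n = 4) in joint and 2068 ± 1461 CPM (n = 4) in muscle. The difference between the CIA and healthy contrasts was not called for Ctss (-1.002, adjusted p = 0.52) or Chil3 (-1.38, adjusted p = 0.585). Fabp1 and Ear2 were too low to test in CIA, where Fabp1 had 78 UMIs in lung and none in joint or muscle and Ear2 had 44, 4 and 9. S100a4 (-1.07 ± 0.31, adjusted p = 0.028) and Lgals1 (-1.28 ± 0.29, adjusted p = 0.0063) were lower in lung in both groups of mice. The gap between the CIA and healthy contrasts of S100a4 was not called (2.06, adjusted p = 0.091). Of the genes higher in healthy lung, Lpl, Spp1, Ctsd, Mt1 and Btg1 were also tested in CIA and not called there. Of the lower genes, Anxa1, Crip1, Ifitm2, Ifitm3, Ly6c2, S100a6, S100a8 and S100a10 were likewise tested and not called.

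F13a1 differed in its organ contrast between CIA and healthy mice. In CIA lung it had UMIs in 6 of 6 sums, 60 in all, at 258, 169, 375, 75.9, 194 and 542 CPM in mice S1, S2, S3, S5, S6 and S8. CIA joint held 665, 116, 614 and 724 CPM (S1, S3, S5 and S8) and CIA muscle 53.4, 149, 248 and 96.0 CPM (S2, S3, S5 and S6). CIA lung overlapped both other organs, and the contrast was near 0 (-0.07 ± 0.46, adjusted p = 0.94). The CIA contrast exceeded the healthy contrast by 6.04 ± 0.98 on the log2 scale (adjusted p = 0.00094). F13a1 was the 1 gene of 913 tested so (0.11%), and none was called in the other direction (0%), where 25 and 45 genes had an unadjusted p under 0.05 in edgeR and DESeq2 also called 1 and 0. Without CIA lung of S6 or CIA joint of S5, 2 genes were called higher, and without healthy joint of H3 or H4, 2 and 1 were called lower. The healthy side of this difference rests on 1 lung UMI, and over 28 other settings, each sum left out included, it ranged from 5.58 to 7.46 (without healthy lung of H4, which held that UMI) with adjusted p up to 0.018.

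**Figure D5:**
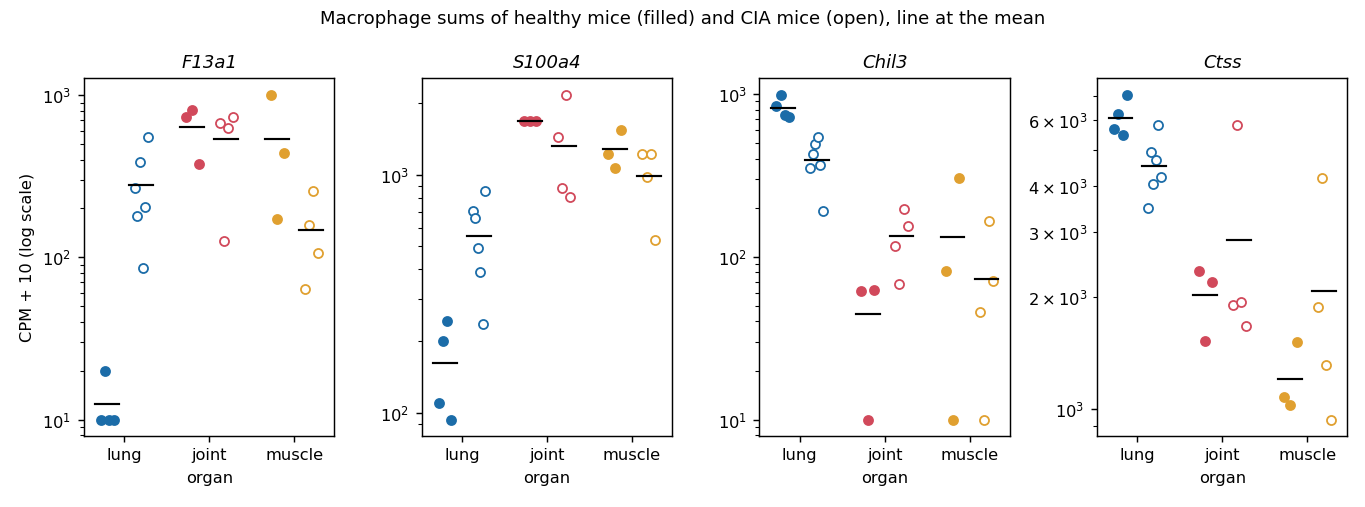
CPM of F13a1, S100a4, Chil3 and Ctss in macrophage sums of healthy mice (filled) and CIA mice (open) by organ, on a log axis after adding 10 CPM. Healthy lung F13a1 points sit at 0 to 9.98 CPM and the 6 CIA lung points at 75.9 to 542 CPM, while S100a4 is lower in lung than in joint and muscle on average in both.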

How the data were processed

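Single cells from 10 mice had been captured by Seq-Well, aligned by the authors to GRCm38 and counted per gene with Drop-seq tools. The authors deposited 1 table of raw UMI counts, with no normalization, of 13240 barcodes and 34586 genes, and an annotation of 12096 cells, the number the study keeps. Per the labels other builds are also listed, and gene positions were taken from a GRCm38 annotation. The study set an upper limit of 6000 transcripts per cell against doublets, which 3 annotated cells exceeded, 2 of them healthy macrophages. No doublet caller was run here. Over all libraries 59 barcodes occurred in more than 1.

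Counts of annotated macrophages were summed per organ and mouse (at least 10 cells, 11900 to 103883 UMIs). Genes were filtered with filterByExpr (600 kept), scaled by the trimmed mean of M values and tested with edgeR 4.0.16's quasi-likelihood test in R 4.3.3 over the 10 healthy sums with organ as the term, adjusted by Benjamini-Hochberg at 0.05. The 14 CIA sums were fitted alone, and all 24 together for the difference between contrasts. DESeq2 1.42.0 was an alternative. Per-cell shares, bounds and figures used Python 3.11.15, numpy 2.4.6, pandas 2.3.3, scipy 1.17.1 and matplotlib 3.10.9. Named genes were members of 17 gene lists, the 10 genes of largest fold per contrast and direction among those called without overlap of the organs, and markers. Members and lists were chosen with earlier results of these data known, and Crip1 was named after its values were seen. A floor of 3 UMIs over a group gives each bound, and 95% counting intervals are exact. Both cover counting error only.

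Organs of a mouse share the animal, so the mouse was tried as a block. Deviations of same-mouse sums from their organ means correlated at -0.020 to 0.177 (median 0.031, 8 pairs) and those of other mice at -0.186 to 0.163 (25 pairs). On simulated counts for the lung contrast, 54.3% of 162 genes changed by 1 on the log2 scale were called (4.35% false calls, 478 genes), and 99.4% of 181 genes changed by 2 (5.76%, 532 genes). For joint against muscle, 21.6% of 171 genes changed by 1 (0%, 492 genes) and 92.0% of 174 genes changed by 2 (3.03%, 457 genes) were called. Alternatives were size factors, filters, cell minimums, blocks, depth, other cells' RNA and each sum left out.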

Additional observations from a re-analysis of the deposited data

Results flagged for a closer look

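The difference between the CIA and healthy organ contrasts of F13a1, 6.04 on the log2 scale, passed its own test, as given above with its values.

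Groups of sums tested numbered 89, all from healthy lung but for F13a1 in the 3 organs of CIA mice. In healthy lung, 11 groups held 1 sum far from the other 3, and no CIA group did. The gap was more than 0.829 of the group's range, where chance marks about 1 in 20 groups of normally distributed values. For the CIA lung group of 6 sums the limit was 0.625. Most of the 11 are genes at or near 0 in lung, for which that rate does not hold. A gene with UMIs in 1 lung sum alone has a gap of 1 by construction. With a gap of 1, the lone value above 0 was 9.98 CPM in H4 for F13a1, 9.98 CPM in H4 for Hba-a1, 59.9 CPM in H4 for Cyb5r3, 33.2 CPM in H3 for Pf4, 33.2 CPM in H3 for the neutrophil granule gene Ngp and 41.9 CPM in H7 for Camp, another such gene. For Apoe, H6 stood at 292 CPM beside 166 to 170 CPM (gap 0.972). Retnlg, a neutrophil product, stood at 99.7 CPM in H3 beside 0 to 9.98 CPM (0.900). In H7, Hbb-bs stood at 251 CPM beside 0 to 29.9 CPM (0.881), the ion transport regulator Fxyd2 at 83.7 CPM beside 0 to 9.98 CPM (0.881) and the erythroid list at 251 CPM beside 0 to 39.9 CPM (0.841).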

How the results depend on the processing

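Of 115 results on single genes, 64 kept direction and side of the threshold under all alternatives that tested the gene, and none reversed. The mouse as a replicate block took the genes lower in lung than in muscle to 29, ended the calls given above and those of Cyb5r3, Fxyd2, Gm9625, Map3k8, Rplp0 and Rps15a-ps8 between joint and muscle and of Apoe between lung and muscle (adjusted p = 0.16), and changed no other call but that of Lyz2. Plain library sizes took genes lower in lung than muscle to 77. With no filter (15891 genes), lung against both gave 112 higher and 17 lower, lung against joint 69 higher, lung against muscle 19 lower, CIA 101 higher and the difference of contrasts 2 and 1. Sums of 5 cells or more gave 6 lower in joint than muscle, and sums of 20 or more (1 joint and 2 muscle sums) gave 20 higher in lung than joint and 6 and 0 between joint and muscle. Mice of experiment CIA alone (fewer sums) gave 18 lower against both, 15 and 11 against joint, 22 lower against muscle and 4 and 0 between joint and muscle. Sums thinned to 11900 UMIs (160 genes left) gave 14 and 9, 8 and 13, 16 and 10, and 2 and 0 in the same order. Leaving out other cell types' genes gave 29 higher in joint than muscle, and leaving out cells with that RNA gave 20 lower against both, 20 against joint, 24 against muscle and 10 and 6 between joint and muscle. DESeq2 gave 96 and 69 in CIA. The causes of the moves under library sizes, the block, DESeq2 and other cell types' genes were not tested. With 1 sum left out, higher and lower genes ranged over 36 to 72 and 20 to 47 against both, 23 to 52 and 21 to 46 against joint, 25 to 59 and 25 to 49 against muscle, 3 to 25 and 0 to 12 between joint and muscle, 28 to 97 and 21 to 74 in CIA, and 1 to 2 and 0 to 2 for the difference. Calls on named genes were kept throughout for 33 of 45 against both, 21 of 24 against joint, 19 of 21 against muscle and 2 of 24 between joint and muscle. Fits in which a gene was too low to test are not counted. Against both, for example, F7, Lipa, Mt1 and S100a1 were tested in 7 such fits and Chil3 in 10.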
